A study of Mus musculus with 12 samples.

Results

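The genes described here are the tetraspanins of mouse CD8 T cells, taken from the table of genes by symbol: every Tspan followed by a number, and Cd9, Cd37, Cd53, Cd63, Cd81, Cd82 and Cd151. This gave 28 of 24421 genes. Of these, 27 are tetraspanin genes and the other, Tspan2os, is an antisense RNA that shares exon bases with Tspan2. Reads were found for 26 of the 28, and 19 carried an adjusted p-value, so the tests below concern 19 genes. The remaining 7 genes with reads lay below the mean at which the authors' test stopped adjusting p-values, and Tspan1 and Tspan2os had no read in any library.

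Tetraspanins are small proteins that pass through the membrane several times and carry a large extracellular loop. They hold few enzymatic functions of their own and instead bind integrins, immunoglobulin-superfamily proteins, proteases and each other, and so gather these partners in patches of the plasma membrane or carry them through endosomes and into exosomes. In T cells several of them are known to act beside the T cell receptor, as costimulators or as brakes on proliferation, and others help cells to adhere and migrate.

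The study compared lymphocytes of wild-type (WT) mice with those of mice that lack linker histone H1 genes (cTKO in the labels). Linker histones bind DNA between nucleosomes and help to fold chromatin. From the spleen of C57BL/6 mice, CD8 T cells, CD4 T cells and B cells were sorted, 500000 per sample, and their polyadenylated RNA was sequenced. The labels list 12 samples in 6 groups of 2, and the table used here compares the 2 CD8 cTKO samples (1 female and 1 male animal) with the 2 CD8 WT samples (1 female and 1 male animal). How the deletion was driven, which alleles the WT animals carry and how old the animals were are not given in the sources used. With 2 animals per genotype, the p-values rest on a spread estimated from these animals together with that of other genes. The spread within a genotype also holds the difference between a female and a male animal. In a bulk sample fewer cells of a type and less RNA per cell cannot be told apart.

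The number of reads in each library was recovered from the deposited means and fold changes. This gave a larger and a smaller library for each genotype (size factors 1.21 and 0.866 for WT, 1.21 and 0.805 for cTKO), with 9301033 to 15062410 reads per library in the 17868 genes for which reads could be found. Below, reads are given in the order larger WT, smaller WT, larger cTKO and smaller cTKO library, and whether groups overlap was judged after division by the size factor. Which animal each library came from was not worked out. The larger cTKO library stood apart at the lowest counts: 1165 genes had a single read in it and none elsewhere, against 102 and 97 such genes for the WT libraries and 156 for the smaller cTKO library. The deleted genes Hist1h1c (41, 56, 0 and 0 reads), Hist1h1e (64, 112, 0 and 0 reads) and Hist1h1d (5, 11, 0 and 0 reads) had no read in either cTKO library. Their negative sign was used to read the deposited fold changes as cTKO over WT, so these genes are no separate check of the labels. Of 9 CD8 T cell markers tested none passed in the authors' deposited table (DESeq2, smallest adjusted p 0.12, 1 lower at an unadjusted p under 0.05), nor did the 2 that limma could test. Cd8a, which codes for a chain of the CD8 co-receptor, had a mean of 20300 normalized reads in the authors' deposited table, against at most 4 reads of Cd4 in any library.

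Among the 19 tested tetraspanin genes, 4 were higher and 4 lower in cTKO cells, and 11 did not pass. Tspan7, Tspan9, Tspan17 and Tspan2 rose, and Tspan32, Cd9, Tspan3 and Tspan13 fell. The share of tested tetraspanin genes called at an adjusted p under 0.05 was 42.1%, while 13.4% of all 12972 tested genes were called in the authors' deposited table. By direction, 21.1% of the tetraspanin genes were higher and 21.1% lower, against 9.77% higher and 3.61% lower among all tested genes of the authors' deposited table. Fold changes were positive for 9 and negative for 10 of the 19 genes. The median log2 fold change was -0.02 for the 19 genes and 0.04 for all tested genes in the authors' deposited table.

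**Figure D1:**
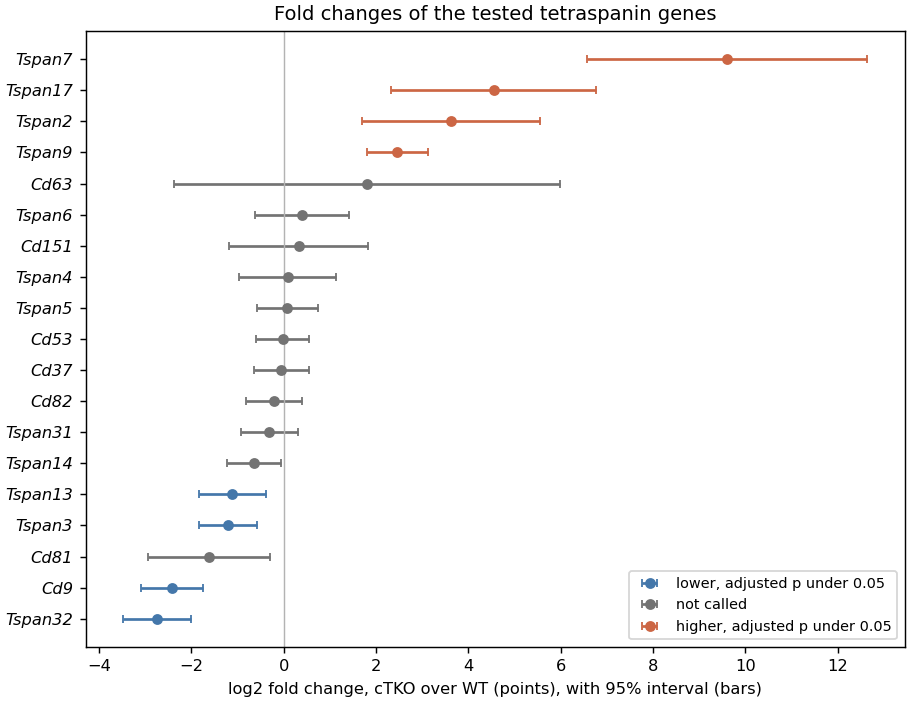
Fold changes of cTKO over WT (x axis, log2) for the 19 tested tetraspanin genes (y axis, ordered by fold change), as points with 95% intervals from the deposited standard error. The 4 genes called higher lie between 2.46 and 9.60, the 4 called lower between -2.75 and -1.12, and the 11 grey genes did not pass.

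Tspan7 was not read in WT cells and was present in both cTKO libraries. It codes for a tetraspanin best known from neurons, in which it takes part in receptor trafficking at synapses, and it lies on chromosome X (10485116 to 10596604, GRCm38.p6). Its reads were 0, 0, 151 and 124. Both cTKO libraries thus held well over 100 reads after scaling (125 and 154 normalized reads), while neither WT library held one. Against a floor of 3 reads over the WT libraries Tspan7 was at least 94.8-fold higher, and in the authors' deposited table its adjusted p was 3.78e-08 (DESeq2, n = 2 per genotype).

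Tspan9 was the most abundant of the 4 genes that rose. It codes for a tetraspanin known from platelets, where it sits beside the collagen receptor GPVI, and it lies on chromosome 6 (127961396 to 128143578). The 4 libraries held 347, 245, 2234 and 1033 reads. After scaling, the WT libraries were nearly equal (286 and 283 normalized reads) and both cTKO libraries (1850 and 1283) lay far above them. The authors' deposited table gives a log2 fold change of 2.46 (SE 0.34, a 5.51-fold rise, adjusted p 2.32e-11 by DESeq2). Of the platelet genes listed, Ppbp and Gp1bb had no read in any library, Pf4 at most 3 and Gp9 at most 1, while Itga2b had 6, 0, 17 and 2 reads and overlapped between the groups. Summed over the 9 platelet and erythroid markers, the WT libraries held 15.7 and 77.4 normalized reads and the cTKO libraries 61.3 and 14.9, and none of the 4 tested ones was called, nor had an unadjusted p under 0.05 in the authors' deposited table (DESeq2) or a call by limma, which could test 2.

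Tspan17 and Tspan2 rose from a few reads. Tspan17, one of the TspanC8 tetraspanins that escort the protease ADAM10 to the cell surface, lies on chromosome 13 (54789102 to 54796775) and had 3, 1, 42 and 43 reads. Its groups did not overlap, and the authors' deposited table gives a log2 fold change of 4.55 with an SE of 1.13 (DESeq2 adjusted p 0.00115). Tspan2, a tetraspanin of myelin-forming cells, lies on chromosome 3 (102734770 to 102772310) and had 7, 2, 89 and 23 reads. Its groups did not overlap either, but both genotypes varied by about the same factor (2.50-fold between the WT libraries and 2.58-fold between the cTKO libraries), and the larger library was the higher one each time. In the authors' deposited table its log2 fold change was 3.63 (SE 0.98, adjusted p 0.00344 by DESeq2). Tspan2os, on the opposite strand, had no read in any library, and how the counting treated strand is not given in the sources used. The rise of Tspan17, Tspan2 and Tspan9 was tested again with limma on the recovered reads, leaving out each library in turn. Without the larger cTKO library the log2 fold changes were 4.31, 2.64 and 2.17 with adjusted p-values of 0.061, 0.182 and 0.061. Without the smaller cTKO library they were 3.71 and 3.98 for Tspan17 and Tspan2 (adjusted p 0.0512 and 0.0611, limma), while Tspan9 still passed. Tspan7 had log2 fold changes between 6.98 and 7.28 in these fits.

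Effector and memory genes of CD8 T cells and some markers of other cells were higher in the cTKO libraries as well. Of 22 effector and memory genes 19 were higher and none lower in the authors' deposited table (DESeq2, and none lower at an unadjusted p under 0.05 or of 18 by limma), with a median log2 fold change of 2.66. Among all tested genes 9.77% were higher and 3.61% lower. The lists were chosen with earlier results of these data known. Of 8 natural killer markers, several of which effector CD8 T cells also express, 5 were higher and 1 lower in the authors' deposited table. The lower one was Fcer1g (94, 41, 10 and 9 reads), and Ncr1 (2, 4, 22 and 1 reads) was not called. The 8 summed to 1373 and 1763 normalized reads in the WT and 7770 and 6886 in the cTKO libraries. Eomes, listed among the effector and memory genes too, held 902 and 1336 of these in WT and 4757 and 4719 in cTKO. Of 3 tested CD4 T cell markers 1, Zbtb7b, was higher in the authors' deposited table (15, 11, 110 and 34 reads). Of 7 tested myeloid markers Itgam alone was called, higher, in the authors' deposited table. The myeloid markers summed to 74.9 and 70.4 in WT and 453 and 189 in cTKO normalized reads, and without Itgam to 46.9 and 35.8 in WT and 93.6 and 17.4 in cTKO. At an unadjusted p under 0.05 S100a8 was also higher (0, 0, 22 and 0 reads) and Fcgr3 lower (28, 11, 1 and 0 reads, adjusted p 0.0503) in the authors' deposited table (DESeq2). The part of such cells and cell states in the higher tetraspanin reads was not tested.

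**Figure D2:**
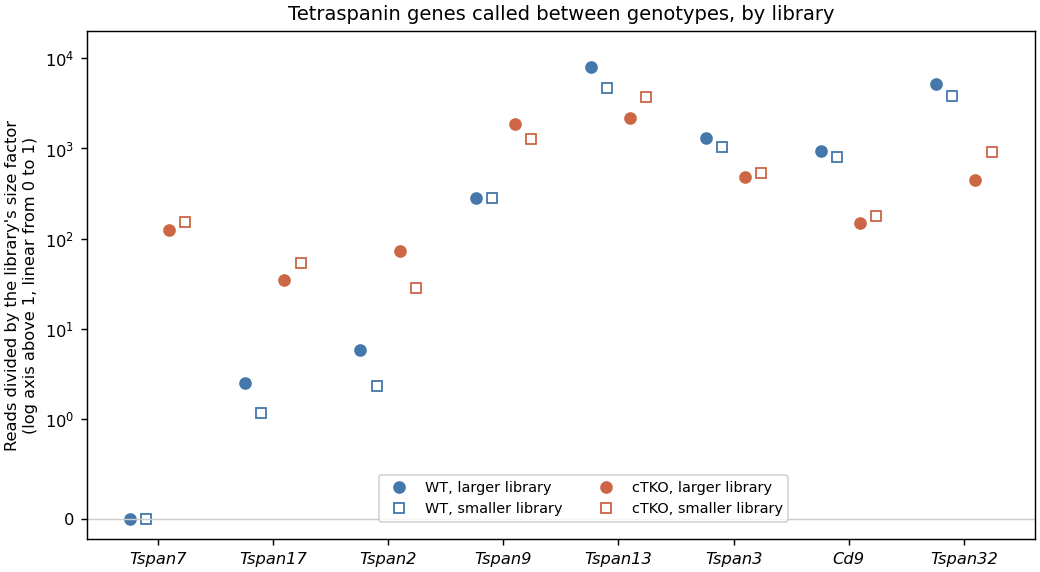
Reads divided by the size factor (y axis, log above 1) in each of the 4 libraries for the 8 called tetraspanin genes (x axis). Circles are the larger and squares the smaller library, blue WT and orange cTKO, and for each gene both libraries of one genotype lie above both of the other.

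The promoters of Tspan7 and Tspan9 are shown because these genes rose with the most reads. Both windows are the 250 bases before the start of the gene on its own strand, from RefSeq on GRCm38.p6 (Tspan7 chrX:10484866-10485115, plus strand, and Tspan9 chr6:128143579-128143828, minus strand, the outermost of its 4 windows), with CG pairs in capitals. Each holds 19 CG pairs, and 25.8% of the windows of all genes hold as many or more.
Tspan7: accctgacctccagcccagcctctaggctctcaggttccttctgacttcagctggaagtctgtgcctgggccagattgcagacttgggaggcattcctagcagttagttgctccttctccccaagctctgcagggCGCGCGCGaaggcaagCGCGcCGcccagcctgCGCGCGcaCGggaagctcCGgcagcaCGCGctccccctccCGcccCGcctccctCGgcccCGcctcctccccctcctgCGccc
Tspan9: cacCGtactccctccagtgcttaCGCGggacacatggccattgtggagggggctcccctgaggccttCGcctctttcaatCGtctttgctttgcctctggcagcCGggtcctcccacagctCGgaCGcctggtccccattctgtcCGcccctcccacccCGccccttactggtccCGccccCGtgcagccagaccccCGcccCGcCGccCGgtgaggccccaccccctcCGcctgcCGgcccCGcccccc

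Tspan32 fell most among the tested tetraspanin genes. It codes for a tetraspanin of blood cells (also called Tssc6 or Phemx), and T cells of mice without it are known to proliferate more after stimulation. It lies on chromosome 7 (143004907 to 143019486). Its reads were 6375, 3339, 541 and 733. Both cTKO libraries (448 and 911 normalized reads) lay below both WT libraries (5249 and 3856), though they differed 2.03-fold from each other. The authors' deposited table gives a log2 fold change of -2.75 (SE 0.38, a 6.71-fold fall, adjusted p 3.23e-11 by DESeq2). Exons of the antisense gene Tspan32os overlap it, so without strand information reads in the shared bases cannot be told apart. How many bases are shared was not measured.

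Cd9 fell nearly as far. It codes for an adhesion tetraspanin, required on the egg for fusion with sperm and able to costimulate T cells, and lies on chromosome 6 (125460266 to 125494760). The 4 libraries held 1139, 697, 180 and 143 reads. The libraries of each genotype were close after scaling (938 and 805 normalized reads in WT, 149 and 178 in cTKO) and the groups were well apart. In the authors' deposited table the log2 fold change was -2.42 (SE 0.34, a 5.35-fold fall, adjusted p 1.89e-10 by DESeq2). Exons of Cd9 overlap Gm26728 on the opposite strand, so here too reads in the shared bases, whose number was not measured, cannot be told apart without strand information.

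Tspan3 and Tspan13 fell by smaller amounts. Tspan3, described in myelin-forming cells and in myeloid leukaemia, lies on chromosome 9 (56135884 to 56161070) and had 1579, 910, 585 and 428 reads. Its groups did not overlap, and the authors' deposited table gives a log2 fold change of -1.21 with an SE of 0.32 (DESeq2 adjusted p 0.00268). Tspan13, on chromosome 12 (36014555 to 36042478), had 9848, 4054, 2654 and 2978 reads. Its groups did not overlap, but the WT libraries differed 1.73-fold (8109 and 4681 normalized reads) and the cTKO libraries 1.68-fold (2198 and 3700). It had the highest adjusted p of the 8 called genes, the log2 fold change in the authors' deposited table being -1.12 (SE 0.37, DESeq2 adjusted p 0.0245). A limma fit to the recovered reads gave Tspan13 a log2 fold change of -1.11 with an adjusted p of 0.075, and -0.71 (adjusted p 0.6) without the larger WT library. Each of the 4 falling genes was also refitted with a library left out. Without the larger cTKO library the limma log2 fold changes of Tspan32, Cd9, Tspan3 and Tspan13 were -2.30, -2.28, -1.13 and -0.74, with adjusted p-values of 0.0807, 0.0641, 0.164 and 0.452. In the other 3 such fits the log2 fold changes lay between -3.32 and -2.59 for Tspan32 and between -2.53 and -2.30 for Cd9. Tspan3 passed in none of the 4, with adjusted p-values of 0.38 and 0.125 without the larger and the smaller WT library and 0.0685 without the smaller cTKO library (limma). Tspan13 passed only without the smaller WT library, its adjusted p without the smaller cTKO library being 0.109 (limma).

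B cells carry several of these tetraspanins too, and some of their markers were lower in the same libraries. Of 11 tested B cell markers 4 were lower and none higher in the authors' deposited table (DESeq2, with none higher at an unadjusted p under 0.05 or by limma), where 3.61% of all tested genes were lower and 9.77% higher. The 4 were Cd79b, H2-Aa, H2-Ab1 and Cd74. The 14 B cell markers listed summed to 2407 and 2353 normalized reads in the WT and 1327 and 468 in the cTKO libraries. Of the 1327 in the larger cTKO library, Cd22 held 748 (208, 131, 903 and 38 reads, not called). Ms4a1 and Pax5 had at most 7 reads in any library of either genotype, while Cd79a had 47, 67, 44 and 25 and was not called. The part of B cells in the lower tetraspanin reads was not tested.

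The promoters of Cd9 and Tspan32 are shown because they belong to the genes that fell most and differ in their CG content. They are again the 250 bases before the start from RefSeq on GRCm38.p6 (Cd9 chr6:125494761-125495010, minus strand, and Tspan32 chr7:143004796-143005045, plus strand), with CG pairs in capitals. The start that the RefSeq table gives for Tspan32 lies inside the span of the gene given above, so its window overlaps that span. Cd9 holds 16 CG pairs, and 34% of all windows hold as many or more. Tspan32 holds 1, which 93.2% of all windows reach.
Cd9: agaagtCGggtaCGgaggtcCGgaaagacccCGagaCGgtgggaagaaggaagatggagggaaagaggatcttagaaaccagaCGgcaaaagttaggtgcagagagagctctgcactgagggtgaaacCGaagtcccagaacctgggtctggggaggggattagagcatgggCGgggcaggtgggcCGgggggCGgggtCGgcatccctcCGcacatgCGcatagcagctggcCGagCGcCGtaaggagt
Tspan32: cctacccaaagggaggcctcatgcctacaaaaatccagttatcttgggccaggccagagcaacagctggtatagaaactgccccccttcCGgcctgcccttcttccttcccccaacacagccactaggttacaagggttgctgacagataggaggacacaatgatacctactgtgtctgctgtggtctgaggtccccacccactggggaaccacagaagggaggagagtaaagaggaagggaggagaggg

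Sequences of this kind were found for 27 of the 28 genes. The median number of CG pairs was 19 for the 4 tetraspanin genes that rose, 15 for the 4 that fell, 12 for the 11 that did not pass and 4.5 for the 8 with a window and no adjusted p. Over all genes of the table with a window it was 14 for genes called higher, 14 for those called lower and 16 for tested genes not called. Both strands were searched for 3 motifs. GGGCGG, the core that Sp1 binds, was found 2 times before Tspan7, 6 times before Tspan9, 8 times before Tspan17, 2 times before Cd9 and once before Tspan13. Among the tetraspanin genes that did not pass it was found too, 5 times before Tspan14 and 3 times before Cd81, and 63.6% of those genes held it. Over the whole table it was in 56.1% of windows of genes called higher, 59.3% of those called lower, 57.9% of those tested and not called and 42.8% of all windows. TGTGGT, the core that Runx factors bind, was found 2 times before Tspan32 and once before Tspan2, Tspan3 and Cd53, and in 12.1% of all windows. TATAAA was found before none of the 19 tested tetraspanin genes, in 6.23% to 7.51% of windows of all tested genes by call and in 12.1% of all windows. The promoters printed and the motifs were chosen after the fold changes were known.

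Cd53, the most abundant tetraspanin, did not pass, nor did Cd82 and Cd37. Cd53, a leukocyte tetraspanin that helps to keep L-selectin and CD45 at the lymphocyte surface, had a mean of 17700 normalized reads in the authors' deposited table and a log2 fold change of -0.02 with an SE of 0.29 (DESeq2 adjusted p 0.972). Its reads per library are not given, since 18 sets of whole reads met its mean and fold change about equally well. The 95% interval of its log2 fold change, -0.60 to 0.55, still allows a change of up to about that size in either direction.

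Cd82, which is known as a suppressor of metastasis and takes part in T cell costimulation, had 9907, 4966, 6902 and 5050 reads. Its groups overlapped, and the log2 fold change in the authors' deposited table was -0.21 (SE 0.31, adjusted p 0.708 by DESeq2). Cd37, a leukocyte tetraspanin that restrains T cell proliferation, had 3899, 3530, 3868 and 3104 reads. The groups overlapped here too, the log2 fold change in the authors' deposited table being -0.05 (SE 0.30, DESeq2 adjusted p 0.947, 95% interval -0.64 to 0.55). Exons of Cd37 overlap Tead2 on the opposite strand.

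Tspan14, Tspan31 and Tspan5 were read at middle levels. Tspan14, a TspanC8 tetraspanin, had 3767, 3284, 2543 and 1864 reads. Both cTKO libraries were lower than either WT library, and the gene missed the threshold in the authors' deposited table (DESeq2 adjusted p 0.143, log2 fold change -0.64, SE 0.30). Tspan31, whose exons overlap those of the cell cycle kinase gene Cdk4 on the opposite strand, had 2535, 1620, 1625 and 1472 reads. Its normalized reads were 2087 and 1871 in WT and 1346 and 1829 in cTKO, apart by a small margin, and the authors' deposited table gives a log2 fold change of -0.32 with an SE of 0.31 (DESeq2 adjusted p 0.556). Tspan5, the TspanC8 tetraspanin with the most reads after Tspan14, had 780, 792, 1067 and 602 reads, which overlapped, the log2 fold change in the authors' deposited table being 0.07 (SE 0.34, DESeq2 adjusted p 0.924).

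Cd81 came closest to the threshold without passing. It codes for a tetraspanin that costimulates T cells. It had 86, 57, 21 and 22 reads, both cTKO libraries below both WT libraries. In the authors' deposited table its log2 fold change was -1.62 (SE 0.67, 95% interval -2.95 to -0.30, adjusted p 0.0898 by DESeq2). With 5 in place of 1 added before the log2 in the limma fit, it passed narrowly (log2 fold change -1.45, adjusted p 0.0499). Exons of Cd81 overlap R74862 on the opposite strand.

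The other tested genes had at most 98 reads in a library. Tspan6 (91, 68, 98 and 98 reads), Tspan4 (81, 85, 89 and 82 reads), known from migrasomes, and Cd151 (30, 25, 36 and 30 reads), known to bind laminin-binding integrins, had log2 fold changes of 0.40, 0.09 and 0.32 in the authors' deposited table. Their 95% intervals were wide, for Cd151 -1.19 to 1.83, so a change within that range was not detectable at this depth. Exons of Tspan4 overlap Chid1, and those of Cd151 overlap Gm10575, on the opposite strand. Cd63, the tetraspanin of late endosomes and exosomes, had only 1, 2, 7 and 4 reads. Of the 10 genes that did not pass and have known reads, 3 had both cTKO libraries above and 3 both below both WT libraries. Among all tested genes with known reads, called ones included, such separation was common, 31.3% above and 28.1% below. Of the 18 tested tetraspanin genes with known reads, called ones included, 7 lay above and 7 below. The share among genes not called alone was not worked out.

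The genes without an adjusted p were almost unread. Tspan8, Tspan10, Tspan11, Tspan12, Tspan15, Tspan18 and Tspan33 held 1 read in the WT libraries in all, against 15 in the larger and 2 in the smaller cTKO library, with at most 7 per gene in any library (Tspan18, larger cTKO). The larger cTKO library is also the one with the most genes seen as a single read. They include Tspan12, a co-receptor in Norrin signalling in the retina, and the TspanC8 genes Tspan10, Tspan15 and Tspan33. Their differences were not detectable at this depth.

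Per 1000 bases of exon, Cd53 stood far above the other tetraspanins in both genotypes, with about 10200 normalized reads in WT and 10100 in cTKO, taken from its deposited mean and fold change. In WT cells Tspan13 (2580), Cd82 (2310), Tspan14 (1300), Cd37 (1030), Tspan31 (902), Tspan32 (730) and Cd9 (426) followed on the same scale. In cTKO cells the order after Cd53 was Cd82 (2000), Tspan13 (1190), Cd37 (1000), Tspan14 (834), Tspan31 (724) and Tspan9 (315). Tspan32 went from rank 7 to rank 10 and Cd9 from rank 8 to rank 11, while Tspan9 went from rank 11 to rank 7. Of these neighbours, Tspan13 and Cd82 as well as Cd37 and Tspan31 in WT, and Tspan13 and Cd37 as well as Tspan14 and Tspan31 in cTKO, had libraries whose levels per length overlapped. The libraries of the other neighbours with known reads in the orders listed here did not overlap. Further down in cTKO, Tspan3 (119) overlapped with Tspan5 (110), Tspan5 with Tspan32 (109) and Tspan32 with Cd9 (79.9). The cTKO ranks of Tspan32 and Cd9 are thus not settled by the libraries. Cd53 alone held 37% of the normalized tetraspanin reads in WT and 46.1% in cTKO. Without Cd53 the normalized reads of the family summed to 33329 and 27340 in the WT libraries and to 18840 and 22156 in the cTKO libraries.

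**Figure D3:**
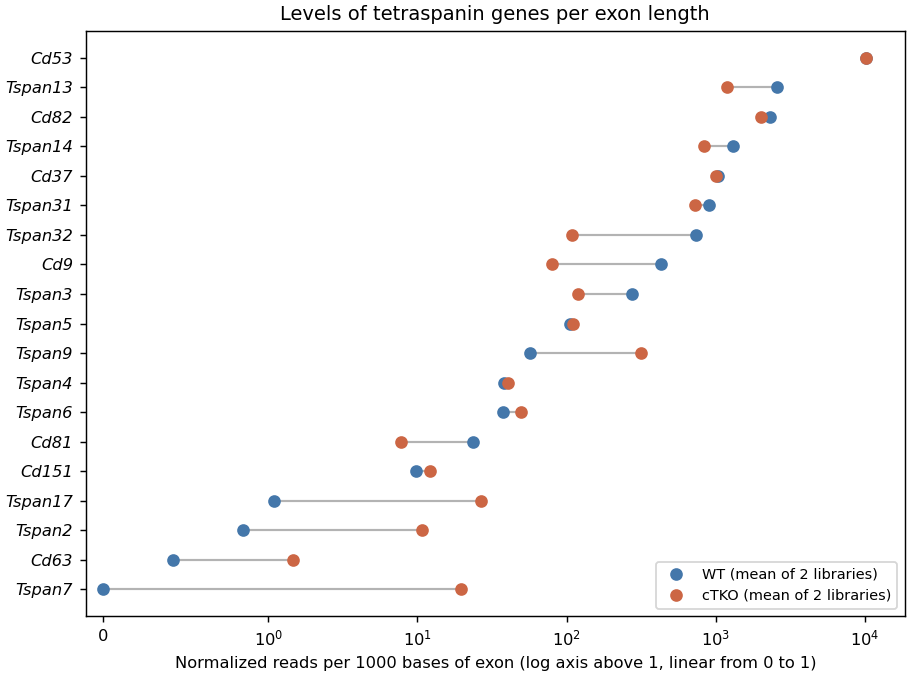
Mean normalized reads per 1000 bases of exon (x axis, log above 1) in WT (blue) and cTKO (orange) for the 19 tested tetraspanin genes, ordered by WT level. Each point is the mean of 2 libraries (for Cd53 from the deposited mean and fold change), and Tspan9, at 57.1 in WT and 315 in cTKO, passes Tspan32, which goes from 730 to 109.

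The level of a gene was set beside its direction, with no test. In the authors' deposited table, both genes with a mean under 50 that were called, Tspan17 and Tspan2, rose, and both called genes with a mean of 2000 or more, Tspan32 and Tspan13, fell. Among all tested genes of the authors' deposited table, 12.1% of those with a mean under 50 were higher and 0.943% lower, while from a mean of 2000 on 5.47% were higher and 5.36% lower. Low genes were thus mostly called in the direction of higher throughout the table, and Tspan17 and Tspan2 share that with them. The larger cTKO library, with its 1165 genes seen as a single read, lies on the side of the excess. Without it the limma log2 fold changes of Tspan17 and Tspan2 were 4.31 and 2.64. After scaling it was the lower cTKO library for Tspan17 (34.8 against 53.4 normalized reads) and the higher one for Tspan2 (73.7 against 28.6). Its part in the excess over the whole table was not tested. Of the 6 tetraspanin genes with a mean of at least 2000, 2 were lower, and of the 5 with a mean between 500 and 2000, 1 was higher (Tspan9) and 2 lower (Cd9 and Tspan3), where 6.7% of all genes were higher and 4.52% lower. These ranges of the mean were chosen after the values were seen.

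**Figure D4:**
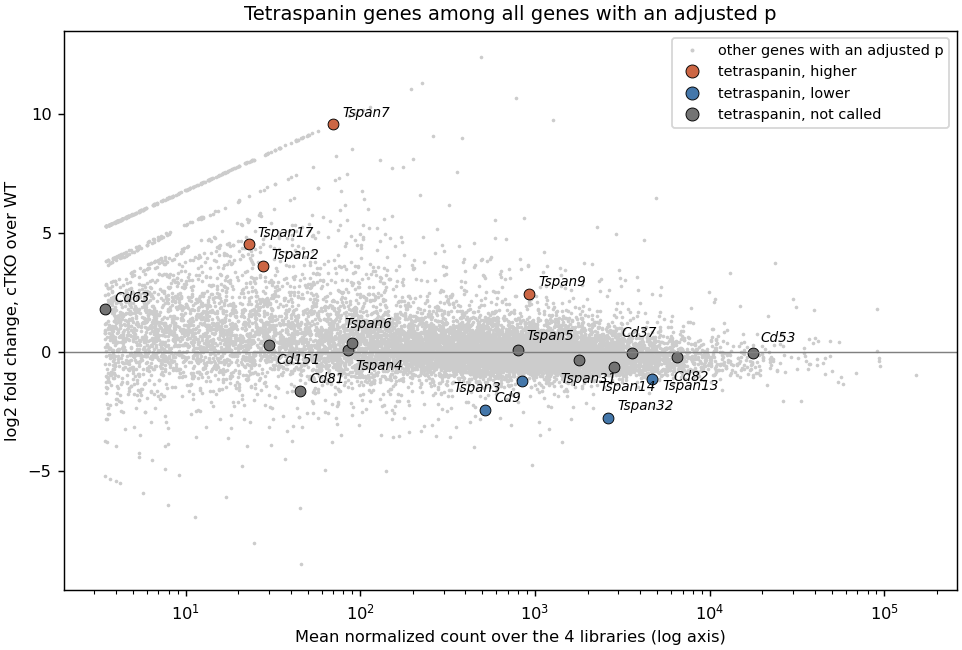
Fold changes of cTKO over WT (y axis, log2) against the mean normalized count over the 4 libraries (x axis, log), for all 12972 tested genes (light grey) and the 19 tested tetraspanin genes (named). Tspan7 lies on the upper line of points made by genes without a WT read, and Tspan32 and Cd9 lie toward the lower edge of genes of their mean.

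Closely related tetraspanins are set side by side here, with no test of the difference between them. Tspan7 (0, 0, 151 and 124 reads) was called higher and its relative Tspan6 (91, 68, 98 and 98 reads) was not called, and both lie on chromosome X. Tspan9 rose while Tspan4, its near relative, stayed between 66.7 and 102 normalized reads in all 4 libraries. Tspan17 rose from 3 and 1 reads, while the related Tspan5 held at least 602 reads in each library. Tspan13 was called lower and Tspan31, its relative, was not. Cd9 and Cd81, which share partners, both had lower reads in cTKO, but only Cd9 passed. These pairs were chosen after the values were seen.

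Genes next to a called tetraspanin gene mostly had few reads. No protein-coding gene lies between Tspan9 and its neighbour Tspan11, 8365 bases away, and Tspan11 had 0, 0, 2 and 0 reads, while Tead4 on the other side had 0, 0, 1 and 0. Cd9 lies between Plekhg6 (2, 1, 24 and 2 reads) and Vwf (0, 0, 5 and 0 reads), and Tspan7 between Otc (0, 0, 0 and 2 reads) and Mid1ip1 (716, 524, 609 and 507 reads), none of them called. Unc5a, the nearest gene above Tspan17 but 148376 bases away, rose too (106, 109, 704 and 407 reads). The authors' deposited table gives Unc5a a log2 fold change of 2.36 (DESeq2 adjusted p 4.44e-08). Eif4e1b, 643 bases below Tspan17, had no read. Tspan32 and Cd81 are neighbours on chromosome 7 with 33264 bases between them, and on the other side of Tspan32 Ascl2 had no read. Peak1, next to Tspan3, rose (log2 fold change 1.58, adjusted p 0.00479 by DESeq2 in the authors' deposited table) where Tspan3 fell. Tshb, next to Tspan2, had at most 1 read in any library, and of the neighbours of Tspan13 Agr2 had none and Bzw2 was not called (2115, 2003, 1960 and 2285 reads).

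The 6 TspanC8 genes control where ADAM10, a protease that cuts Notch and other surface proteins, goes in the cell. Of the 3 tested, Tspan17 rose and Tspan5 and Tspan14 did not pass. Adam10 itself had 4047, 2453, 4346 and 1965 reads, the log2 fold change in the authors' deposited table being -0.03 (SE 0.32, DESeq2 adjusted p 0.968). Of 12 tested ADAM proteases and target genes, 2 were higher and none lower in the authors' deposited table: Cd44, the hyaluronan receptor (630, 733, 5464 and 2831 reads, DESeq2 adjusted p 8.89e-12), and Notch1 (405, 356, 2814 and 516 reads, DESeq2 adjusted p 6.57e-04). Among all tested genes 9.77% were higher and 3.61% lower. In limma with all 4 libraries Notch1 had a log2 fold change of 1.72 and did not pass (adjusted p 0.0567). The larger cTKO library held most of its reads, and when it was left out of the limma fit the log2 fold change was 0.79 (adjusted p 0.29).

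Of the integrin chains that tetraspanins bind, all 13 were tested in the authors' deposited table, where 5 rose and 2 fell. The shares over all genes tested there were 9.77% higher and 3.61% lower. Itga6, a chain of the laminin-binding integrins that partner Cd151 and Cd9, fell from 1825 and 1231 to 313 and 200 reads. The authors' deposited table gives it a log2 fold change of -2.53 with an SE of 0.32 (DESeq2 adjusted p 1.73e-13), so Itga6 and Cd9 were both lower. Itgae, the chain of the receptor for E-cadherin, fell as well (2375, 1746, 787 and 406 reads, log2 fold change -1.78 in the authors' deposited table). Itgb1, the beta chain shared by many partner integrins, rose, the log2 fold change in the authors' deposited table being 2.25 (SE 0.32, DESeq2 adjusted p 1.67e-10), and Itgal, a chain of LFA-1, rose too, by 1.24 (log2) in the authors' deposited table. Itgb3 (340, 235, 3080 and 939 reads), Itga1 (49, 21, 729 and 108 reads) and the collagen-binding chain Itga2 (27, 24, 155 and 80 reads) also rose. After scaling, the larger cTKO library lay well above the smaller for Itgb3 and Itga1, and the cTKO libraries of Itga2 were closer (128 and 99.4 normalized reads). In the limma fit without that library, Itga1 had a log2 fold change of 2.06 (adjusted p 0.216), Itga2 of 1.96 (adjusted p 0.168) and Itgb3 of 2.08 (adjusted p 0.0662). Itga3 and Itga4, partners of Cd151 and Cd37, did not pass in the authors' deposited table (adjusted p 0.703 and 0.405, DESeq2). The median log2 fold change of the 13 was 0.74, against 0.04 for all tested genes in the authors' deposited table.

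Of 15 tested receptors and immunoglobulin-superfamily partners, 2 were higher and 2 lower in the authors' deposited table. Over all genes tested there, 9.77% were higher and 3.61% lower. Cd44 and the chemokine receptor Cxcr4 (122, 117, 730 and 223 reads) rose. Igsf3 (161, 45, 25 and 8 reads) and Cd74 (502, 479, 252 and 92 reads) fell. Cxcr4, Igsf3 and Cd74 lost their call in the limma fit without the larger cTKO library (log2 fold changes of 1.24, -2.94 and -2.06, adjusted p 0.277, 0.226 and 0.125). Igsf8, which binds Cd9 and Cd81 directly, had 249, 309, 544 and 405 reads and did not pass in the authors' deposited table (DESeq2 adjusted p 0.187, log2 fold change 0.77).

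Most genes of vesicle traffic and of palmitoylation, the lipid modification that tetraspanins need to cluster, were not called. Of 18 tested genes of exosome and endosome sorting 1 was higher and none lower in the authors' deposited table. That gene, Rab27b, a GTPase of vesicle docking, had 0, 3, 969 and 574 reads, the log2 fold change in the authors' deposited table being 9.01 (SE 0.90, DESeq2 adjusted p 1.00e-20). Of 20 tested palmitoyltransferases 2 were higher and none lower in the authors' deposited table. Beside both lists, 9.77% of all tested genes were higher and 3.61% lower. Zdhhc2, an enzyme known to palmitoylate Cd9 and Cd151, rose from 60 and 48 to 884 and 567 reads, the log2 fold change in the authors' deposited table being 3.78 (SE 0.37, DESeq2 adjusted p 9.78e-22). Zdhhc15 rose less (719, 506, 1807 and 698 reads, log2 fold change 1.01 in the authors' deposited table, adjusted p 0.0384 by DESeq2). It did not pass in limma with all 4 libraries (log2 fold change 0.95, adjusted p 0.0949), nor with the deposited p-values adjusted over every gene (adjusted p 0.0537). Without the larger cTKO library, the limma log2 fold changes of Zdhhc2, Zdhhc15, Rab27b and Cd44 were 3.73, 0.56, 8.40 and 2.41, with adjusted p-values of 0.0597, 0.285, 0.0923 and 0.123. Of all called partner genes with recovered reads, Itga6 and Itgae alone passed in that fit, and Itga6, Itgae, Itgb3, Notch1 and Zdhhc2 without the smaller cTKO library. Without the larger WT library Cxcr4, Igsf3, Notch1 and Zdhhc15 did not pass (adjusted p 0.078, 0.237, 0.0521 and 0.445), and without the smaller one Cd74 and Zdhhc15 did not (adjusted p 0.15 and 0.364, limma). At an unadjusted p under 0.05, 1 gene was lower in each of the ADAM, sorting and palmitoyltransferase lists in the authors' deposited table (DESeq2), and limma called none lower in any of the 3. Over the 5 lists together, 11 of 77 tested genes were higher and 4 lower, 19.5% against the 13.4% of all tested genes. These lists were chosen with earlier results of these data known, so the difference is description only. Tetraspanins with other symbols were nearly absent apart from Rom1, and of 3 tested only Upk1b passed (0, 0, 6 and 17 reads, at least 7.93-fold higher).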

How the data were processed

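Paired-end libraries of polyadenylated RNA were made from sorted splenic CD8 T cells, per the labels. STAR and DESeq2 were used on mm10 (GRCm38.p6), per the submitters' processing notes. Versions, annotation, counting and strand handling: not given in the sources used here. For each gene, the mean of read counts divided by size factors, a signal over the 4 libraries, the log2 fold change with its standard error, the test score, the p-value and its adjusted value are as the authors deposited them in 1 table without values per sample. Calls use the authors' adjusted p under 0.05. Fold changes are cTKO over WT, read from the sign of the deleted H1 genes, and the opposite reading would turn every direction.

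The reads of each library were recovered from these deposited values. A mean is the sum of 4 whole numbers of reads, each times the worth of 1 read in its library. Below a mean of 14 all 2235 distinct means had 1 solution, and above it a 2-group negative binomial fit had to return the deposited fold change within 2e-08 on the log2 scale. For genes other than tetraspanins, libraries of a genotype were assumed from a mean of 1000 on to differ by at most 3-fold. Of these other genes, those with a mean above 10000 were not searched. Reads were found for 17868 of 18153 genes with a read (98.4%, holding 72.0% of the summed mean), with a largest fold change error of 3.15e-09. The size factors and the tolerance on the mean were refined once after a first pass. Reads were found for 25 of 26 tetraspanin genes with reads. The search was checked on simulated reads. From a mean of 1000 on, this check used the 3-fold limit, and it did not reach the means of Tspan13 and Cd82. The unrestricted search of tetraspanin genes at such means was thus not checked. Where a genotype had 0 reads, the fold is a lower bound computed against 3 reads over its libraries, and intervals cover 95%. Reads of polymerase-amplified libraries are not independent molecules, so such bounds cover counting error only.

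limma (version 3.58.1, R 4.3.3) on log2 of reads divided by the size factor plus 1, for genes with recovered reads and a mean of at least 10, served as the alternative test. It lacks the genes without recovered reads, many of them the most abundant. Other alternatives were a pseudocount of 0.5 or 5, no minimum mean, other thresholds, a minimum change of 2-fold, re-centred fold changes and leaving out each library. Alternatives for genes not called and for partner genes were added after the data were seen. Exon lengths are unions of GENCODE vM21 exons, and positions and promoters are from RefSeq on GRCm38.p6. Tetraspanin genes were all accounted for, with full values for those called or with a mean of at least 100. From partner lists the called genes and direct partners were named, and nearest genes on either side of called ones. Members and lists were chosen with earlier results of these data known. The other 2 cell types were not analysed here.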

Additional observations from a re-analysis of the deposited data

How the results depend on the processing

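The 8 tetraspanin calls kept their direction under every alternative run. The count of 4 higher genes held under each alternative that used all 4 libraries, and the count of lower genes went from 4 to between 3 and 5. With a library left out in the limma fit, from 1 to 4 genes were higher and from 0 to 3 lower (the 0, without the larger cTKO library, with 4 lower at an unadjusted p under 0.05), and from 2 to 14 partner genes were called (2 without the larger and 6 without the smaller cTKO library), against 15 by DESeq2 and 11 by limma with all 4 libraries. Of the 14, without the smaller WT library, 11 were among the 15. The fits without a cTKO library called few genes anywhere: 173 higher and 14 lower without the larger one and 328 and 40 without the smaller one, against 946 and 267 with all 4 libraries, and the cause was not tested. In them the remaining cTKO library is assumed to vary like the WT libraries. In the fits without a WT library, the remaining WT library is likewise assumed to vary like the cTKO libraries. Each fit with a library left out takes its spread from the 1 genotype with 2 libraries, so passing in it is a weak check.

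Of the genes that did not pass, some near 0 changed sign without passing. Re-centring, by a median log2 fold change of -0.10, gave 0.06 for Cd37 and 0.08 for Cd53. Without the larger WT library Cd82 had 0.06, Tspan4 -0.18 and Tspan5 -0.17, and without the smaller WT library Cd37 had 0.13. Without the larger cTKO library Cd37 had 0.09 and Tspan5 -0.04, and without the smaller one Tspan4 had -0.13. Depth limits Cd63 and the genes without an adjusted p, and Cd53 and 2 called partner genes, Itgal and Itgb1, had no recovered reads and so no limma fit. No paired analysis was possible because the WT and cTKO animals share no number in the labels. A block by sex was not run, since which animal each recovered library came from was not worked out.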
